A study of Homo sapiens with 6 samples.

Results

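Aminoacyl-tRNA synthetases join each amino acid to its transfer RNA, and the genes for these enzymes were examined in colorectal cancer cells with and without knockdown of ARMC5. The set holds 40 of the 35810 genes that had a transcript matched to the GENCODE 44 annotation. Members were taken by symbol: protein-coding genes named by an amino acid letter followed by ARS1 or ARS2, together with EPRS1, FARSA, FARSB, QARS1, AIMP1, AIMP2 and EEF1E1. By known location, 18 encode cytosolic enzymes or enzyme chains, 17 encode mitochondrial enzymes, 2 (GARS1 and KARS1) serve both compartments and 3 (AIMP1, AIMP2 and EEF1E1) are scaffold proteins without synthetase activity.

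PolyA+ RNA was sequenced from DLD-1, an established human colorectal adenocarcinoma line, and all 6 libraries came from its SPT5-AID derivative, in which the elongation factor SPT5 carries an auxin-inducible degron. The 3 shARMC5 libraries received a short hairpin RNA against ARMC5, the adaptor through which the CUL3 ubiquitin ligase recognizes RNA polymerase II, and the 3 shNT libraries received a nontargeting hairpin, so that the comparison asks how mRNA levels change when ARMC5 is depleted. Hairpins were delivered by lentivirus to cells then selected with puromycin. No auxin treatment is listed for these samples, and which of the ARMC5 hairpins was used is not given in the sources used here. The study counts the 3 libraries of a group as biological replicates. Neither it nor the labels say how the cultures were separated, and p-values measure the spread between these samples. In bulk RNA, fewer cells of a type and less RNA per cell cannot be told apart.

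Each synthetase recognizes a particular amino acid and the matching tRNAs, and the charged tRNAs are what the ribosome uses. Cytosolic and mitochondrial translation run on separate enzymes, all encoded in the nucleus, except that GARS1 and KARS1 supply both compartments from a shared gene. Mitochondria have no glutaminyl enzyme of their own and make glutaminyl-tRNA by amidation instead. In the cytosol, several synthetases assemble with the scaffold proteins into the multisynthetase complex, and many cytosolic synthetase genes are known targets of ATF4, the transcription factor of the amino acid response.

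Because ATF4 sites lie near the start of several of these genes, promoter windows from the RefSeq table (build GRCh38.p14, from 250 bases before to 50 bases after each annotated start) were searched on both strands for TGATGNAA, the form of the site found in amino acid response elements. Of the 40 members, 33 were in the table and 8 of them (24.2%) held the letters, against 4.46% of the 27305 genes in the table, 2.79% of the 10370 tested genes in it and 3.62% of its 35116 windows. YARS1, AARS2, LARS1, VARS1 and VARS2 were among the members not in the table. Among the members taken here as ATF4 targets, 7 of the 10 in the table (70.0%) held the letters, and among the other members 1 of 23 (4.35%) did. The 30-base stretches around the 8 matches are shown because they separate the members that share this element from the rest. They are written 5′ to 3′ on the strand of the gene, with the matched bases in capitals, and a match is a description of these letters, not a site shown to bind ATF4.
AARS1: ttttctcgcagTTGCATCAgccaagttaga
CARS1: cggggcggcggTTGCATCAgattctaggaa
GARS1: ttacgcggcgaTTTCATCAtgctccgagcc
IARS1: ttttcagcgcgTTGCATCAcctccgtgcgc
MARS1: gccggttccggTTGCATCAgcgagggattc
NARS1: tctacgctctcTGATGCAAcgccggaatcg
TARS1: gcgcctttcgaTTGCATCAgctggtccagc
YARS2: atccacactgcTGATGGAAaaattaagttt

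The capitals lay at chr16:70289686-70289693 for AARS1, chr11:3057418-3057425 for CARS1, chr7:30594845-30594852 for GARS1 and chr9:92293703-92293710 for IARS1. Those of MARS1 lay at chr12:57488064-57488071, of NARS1 at chr18:57621815-57621822, of TARS1 at chr5:33440967-33440974 and of YARS2 at chr12:32756087-32756094. Relative to the RefSeq start, the first capital base was at position -2 in CARS1, -4 in MARS1, -13 in IARS1, -33 in GARS1, -187 in AARS1 and -197 in YARS2, and at +3 in TARS1 and +15 in NARS1. In 6 of these 8 genes, other than NARS1 and YARS2, the letters were read on the strand opposite to the gene. YARS2, the mitochondrial tyrosyl enzyme, was the only mitochondrial member of the table with a match.

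The libraries held between 26201112 and 40866478 estimated reads. ARMC5 itself had 10.8, 11.97 and 12.9 CPM (counts per 1000000, normalized by TMM) in the shARMC5 libraries against 23.0, 25.9 and 26.7 in the shNT libraries, a log2 fold change of -1.09 (SE 0.08, n = 3 each, adjusted p = 5.32e-07 in edgeR's quasi-likelihood test with Benjamini-Hochberg adjustment). With the same test, 1064 of the 13737 genes that passed a filter of at least 10 reads in at least 3 libraries were called at an adjusted p under 0.1, which is 7.75%. Of the epithelial markers EPCAM, CDH1 and CDX2 were present in all libraries, at 982 to 1051, 141 to 172 and 111 to 128 TPM (transcripts per 1000000). CDX1 was listed at 0, LGALS4 at 0.234 to 1.07 TPM, and KRT20 had no matched transcript. The 10 epithelial markers with a matched transcript summed to 8561 to 8864 TPM in shARMC5 and 7574 to 8092 TPM in shNT, and 3 keratins of this list were called higher while VIL1 and CDH17 were called lower. Markers of immune, stromal, endothelial and neuroendocrine cells summed to no more than 2.35 TPM in any library, with CD3E and COL3A1 among those at 0. Whether this epithelial difference has a part in the synthetase values was not tested.

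In control cells the median level of the cytosolic enzymes stood far above that of the mitochondrial enzymes, though not for every amino acid. On the TPM scale, which divides by transcript length and so allows genes to be compared, the median of the 18 cytosolic members in shNT was 149 TPM, the 92.6th percentile of all tested genes. The median of the 17 mitochondrial members was 17.1 TPM, close to the 16.6 TPM of all tested genes. The mRNAs of 13 of the 18 cytosolic members exceeded that of the highest mitochondrial member, IARS2.

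**Figure D1:**
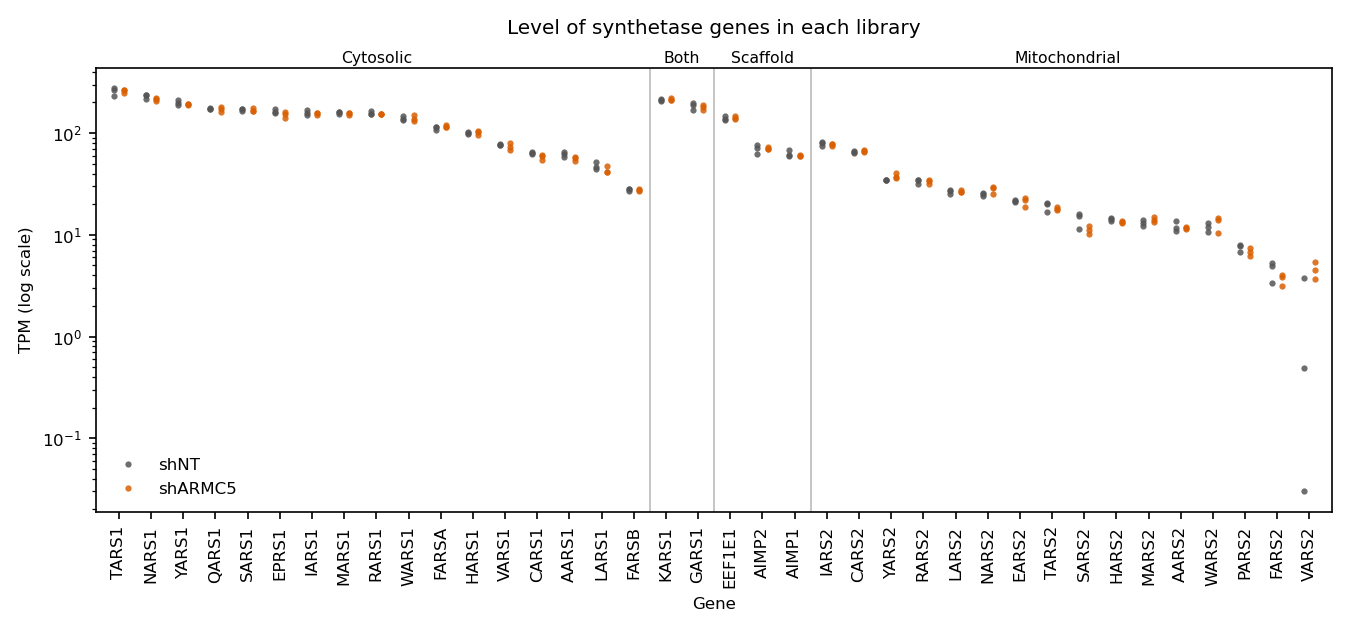
Level of the synthetase genes in TPM on a log axis, one point per library, with shNT in grey and shARMC5 in orange, grouped by the compartment of the protein. Cytosolic genes lie mostly above 60 TPM and mitochondrial genes mostly under 40 TPM, and the VARS2 points of shNT spread far apart.

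The threonyl enzyme TARS1 was the highest cytosolic member, with 277, 262 and 231 TPM in the 3 shNT libraries (257 ± 23.4, SD, n = 3). It was followed by the asparaginyl enzyme NARS1 at 229.7 ± 13.7 TPM and the tyrosyl enzyme YARS1 at 198 ± 11.6 TPM, and the library values of TARS1 and NARS1 overlapped. The lowest cytosolic members in TPM were FARSB, the beta chain of the phenylalanyl enzyme, at 27.9 ± 1.006 TPM, LARS1 at 48.0 ± 3.99 TPM and AARS1 at 62.0 ± 3.39 TPM. In CPM, which does not divide by length, FARSB was near FARSA, at 129.4 ± 2.86 and 132.5 ± 3.35 in shNT. The library values of AARS1 and CARS1 overlapped. Among mitochondrial members IARS2 led at 78.4 ± 3.35 TPM, ahead of CARS2 at 65.0 ± 1.03 TPM and YARS2 at 34.6 ± 0.274 TPM. The library values of YARS2 overlapped those of the next mitochondrial member, so its place is not set by these data. The lowest mitochondrial values were those of PARS2, the prolyl enzyme, at 7.47 ± 0.622 TPM, FARS2, the phenylalanyl enzyme, at 4.51 ± 0.994 TPM and VARS2, the valyl enzyme, which is described below. The genes of both compartments were among the high ones, KARS1 at 210.0 ± 4.96 TPM and GARS1 at 186 ± 14.2 TPM.

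The 11 genes of the multisynthetase complex spanned 48.0 to 210.0 TPM in shNT around a median of 158 TPM. KARS1 was highest and QARS1 (glutamine, 174 ± 2.91 TPM), EPRS1 (glutamate and proline, 165 ± 7.52 TPM), IARS1 (isoleucine, 159 ± 7.66 TPM), MARS1 (methionine, 158 ± 3.58 TPM) and RARS1 (arginine, 158 ± 5.62 TPM) followed within a narrow band. The library values of QARS1 overlapped those of EPRS1, and those of EPRS1, IARS1, MARS1 and RARS1 overlapped one another. The order of these genes is therefore not set by these data. With the unmatched transcripts listed directly after it added, IARS1 had 172 ± 7.06 TPM in shNT, and whether they belong to IARS1 was not settled. EEF1E1, a scaffold also known as AIMP3, had 139 ± 6.49 TPM, AIMP2 69.99 ± 7.73 TPM and AIMP1 63.1 ± 5.04 TPM. LARS1, the leucyl enzyme, was the lowest of the complex on matched transcripts alone. With the unmatched transcripts listed directly after it added, it had 61.7 ± 4.86 TPM in shNT, level with AIMP1 and AARS1, and whether those transcripts belong to LARS1 was not settled.

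For each amino acid with separate enzymes, the cytosolic level was divided by the mitochondrial level within each library. In shNT 16 of the 17 pairs had a mean ratio above 1, and over the pairs other than the valyl pair the median ratio was 7.39. The phenylalanyl pair FARSA to FARS2 had the highest mean of these, 25.8 ± 5.38 (SD, n = 3), and the prolyl pair EPRS1 to PARS2 had 22.1 ± 1.203. The library values of the phenylalanyl and prolyl pairs overlapped, so their order is not set by these data. The phenylalanyl ratio uses the alpha chain FARSA, and the beta chain FARSB was lower in TPM, at 27.9, though near FARSA in CPM. At the low end, on matched transcripts alone, the isoleucyl pair had 2.03 ± 0.027 and the leucyl pair 1.80 ± 0.082. With the unmatched transcripts listed directly after them added, IARS1 had 172 TPM and LARS1 61.7 TPM in shNT, and ratios were not computed with these. The order of these pairs is therefore not set. The cysteinyl pair CARS1 to CARS2 was the exception, with 0.996, 1.02 and 0.939 in the shNT libraries, near equal amounts of both mRNAs.

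**Figure D2:**
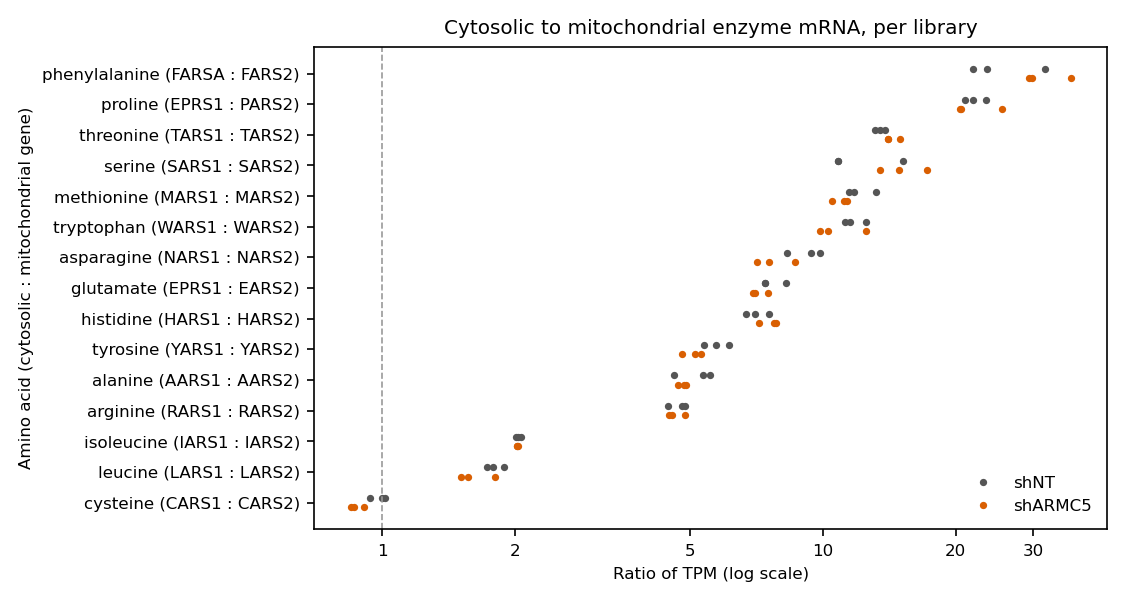
Ratio of the TPM of the cytosolic gene to that of the mitochondrial gene for each amino acid shown, on a log axis, one point per library (shNT grey, shARMC5 orange), without the valyl pair, in which 2 libraries are near 0 for VARS2. On matched transcripts alone, the cysteinyl, leucyl and isoleucyl pairs lie at or below about 2, and the dashed line marks equal levels.

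With ARMC5 knockdown 3 of the 40 synthetase genes were called (7.5%), close to the 7.75% of all tested genes called in either direction. None of the members was called higher, against 4.44% of all tested genes, and 3 were called lower, against 3.30% of all tested genes. The 3 were LARS1, CARS1 and AARS1, all cytosolic, with decreases between 7.71% and 10.6% in edgeR's quasi-likelihood test at an adjusted p under 0.1. No member had an unadjusted p under 0.05 in the upward direction, against 9.78% of all tested genes, and 5 did in the downward direction, against 8.28%, the others being VARS1 and TARS2. DESeq2 on the same counts called LARS1 lower and no member higher, where it called 3.15% and 4.24% of the genes given an adjusted p. When differences in the average transcript length of a gene between libraries were entered as an offset, which is the default of the summarization and testing tools the study names, no member was called by edgeR or DESeq2. The log2 fold changes with the offset in edgeR were -0.13 for LARS1, -0.12 for CARS1 and -0.13 for AARS1, against -0.16, -0.12 and -0.12 without it.

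The median log2 fold change was -0.01 over the 40 members and 0.00 over all tested genes. The median size of the change regardless of sign was 0.044 for members against 0.0778 for all genes. Members also had a smaller median SE, 0.0394 against 0.065, and a higher median level in shNT, 64.4 against 16.6 TPM. By compartment, the median size was 0.0227 for cytosolic members (median SE 0.0314) and 0.0805 for mitochondrial members (median SE 0.062). Sizes were not compared at equal level. Of the 18 cytosolic members, 13 had negative and 5 positive values, with a median of -0.01, where 6942 of the 13737 tested genes were negative. The 17 mitochondrial members split into 8 negative and 9 positive, with a median of 0.00, and none was called, with 1 unadjusted p under 0.05 (TARS2) and 0 calls in DESeq2. For the 3 scaffolds the median was 0.05 and for the 2 genes of both compartments it was 0.01, with no call in either. Members of the catalytic classes I and II had medians of 0.00 and -0.02 over 18 genes each.

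**Figure D3:**
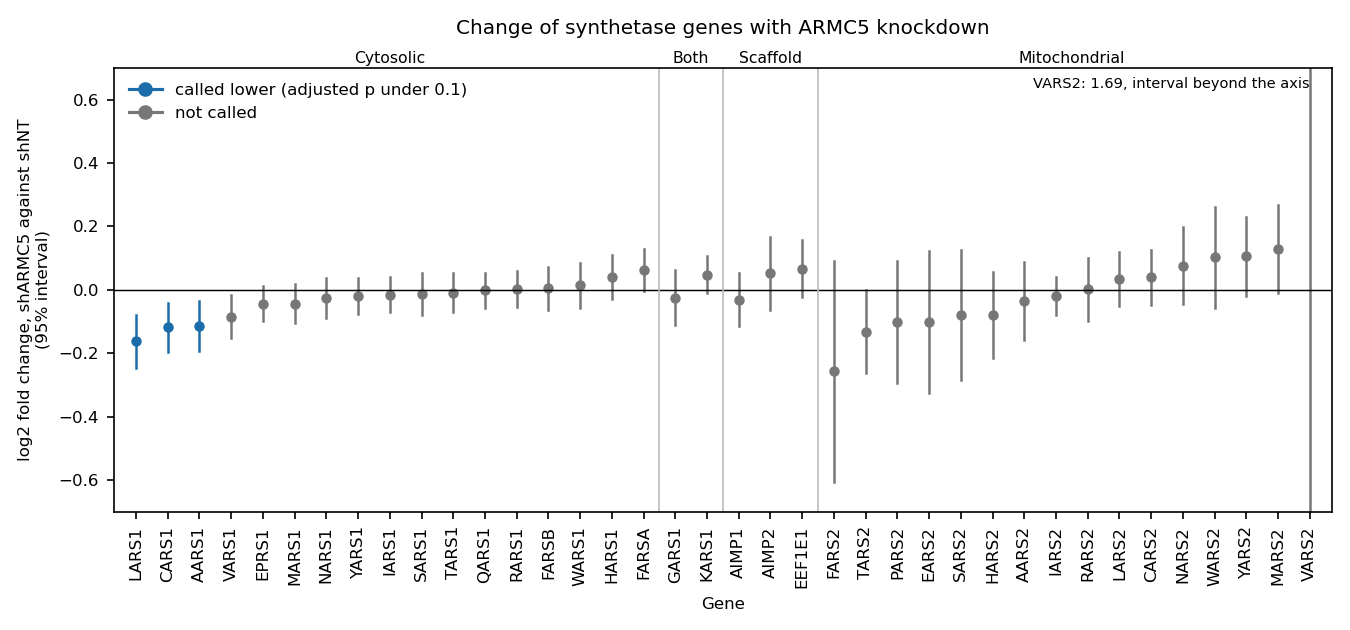
Fitted log2 fold change of shARMC5 against shNT for each gene shown, with its 95% interval, grouped by compartment and ordered by size, with called genes in blue. LARS1, CARS1 and AARS1 lie below 0, while VARS2, at 1.69, runs beyond the axis.

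Most of these differences were narrowly bounded. For 27 of the 37 uncalled members the whole 95% interval of the log2 fold change lay within 0.2 of 0, that is, within a 1.15-fold change in either direction. Intervals of this width were reached by 17 of 18 cytosolic members, both shared genes and all 3 scaffolds, CARS1 and AARS1 among them. Of the 17 mitochondrial members, 7 reached it, and for the other mitochondrial genes the interval does not exclude a change larger than this bound.

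LARS1 (ENSG00000133706, chr5:146110566-146182696 on the minus strand, GRCh38) charges leucine. Its levels were 85.9, 87.0 and 93.0 CPM in shARMC5 and 101.6, 100.7 and 94.9 CPM in shNT. All 3 knockdown libraries lay below all 3 controls, although the highest of them was within 2 CPM of the lowest control. The means were 88.6 ± 3.81 and 99.1 ± 3.60 CPM, and the log2 fold change was -0.16 (SE 0.04, 95% interval -0.25 to -0.08, adjusted p = 0.0249 by edgeR). In TPM, the values of 41.5, 41.5 and 47.3 overlapped with 52.5, 46.7 and 44.8 in the controls. The adjusted p was 0.117 without shARMC5 replicate 2, 0.127 without shNT replicate 1 and 0.5 with the length offset in edgeR, and with the unmatched transcripts listed after LARS1 added the log2 fold change was -0.11 (adjusted p = 0.0607), within a range of 0.000782 to 0.5 over all alternatives.

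CARS1 (ENSG00000110619, chr11:3000922-3057613 on the minus strand) charges cysteine and holds the letters of the ATF4 site at its start. It had 105.9, 106.7 and 98.9 CPM in shARMC5 and 109.9, 115.7 and 113.1 CPM in shNT, so that the groups did not overlap. The means were 103.8 ± 4.30 and 112.9 ± 2.87 CPM, a log2 fold change of -0.12 (SE 0.04, 95% interval -0.20 to -0.04, adjusted p = 0.0764 by edgeR). The groups also stayed apart in TPM, at 59.3, 60.5 and 55.0 against 64.3, 65.3 and 62.1. The call was lost without shARMC5 replicate 2 (adjusted p = 0.102), shARMC5 replicate 3 (0.244), shNT replicate 1 (0.108), shNT replicate 2 (0.177) and shNT replicate 3 (0.171), in DESeq2 (0.105) and with the length offset (0.317), while the range over all edgeR and DESeq2 alternatives was 0.0223 to 0.317.

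AARS1 (ENSG00000090861, chr16:70251983-70289707 on the minus strand) charges alanine and holds the same letters. Its levels were 137.3, 133.9 and 124.5 CPM in shARMC5 against 140.5, 147.6 and 141.0 CPM in shNT, again without overlap. The means of 131.9 ± 6.66 and 143.0 ± 3.97 CPM gave a log2 fold change of -0.12 (SE 0.04, 95% interval -0.19 to -0.04, adjusted p = 0.0914 by edgeR). In TPM the libraries had 58.1, 57.2 and 53.1 against 62.9, 64.8 and 58.2, where the nearest libraries of the groups were almost level. The call was lost without shARMC5 replicate 2 (adjusted p = 0.172), shARMC5 replicate 3 (0.284), shNT replicate 1 (0.155), shNT replicate 2 (0.217) and shNT replicate 3 (0.148), in DESeq2 (0.101) and with the length offset (0.288), with a range over all edgeR and DESeq2 alternatives of 0.0157 to 0.288. AARS1 overlaps DDX19B on the opposite strand by 45 bases, and the library kit named in the labels does not mark strand.

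**Figure D4:**
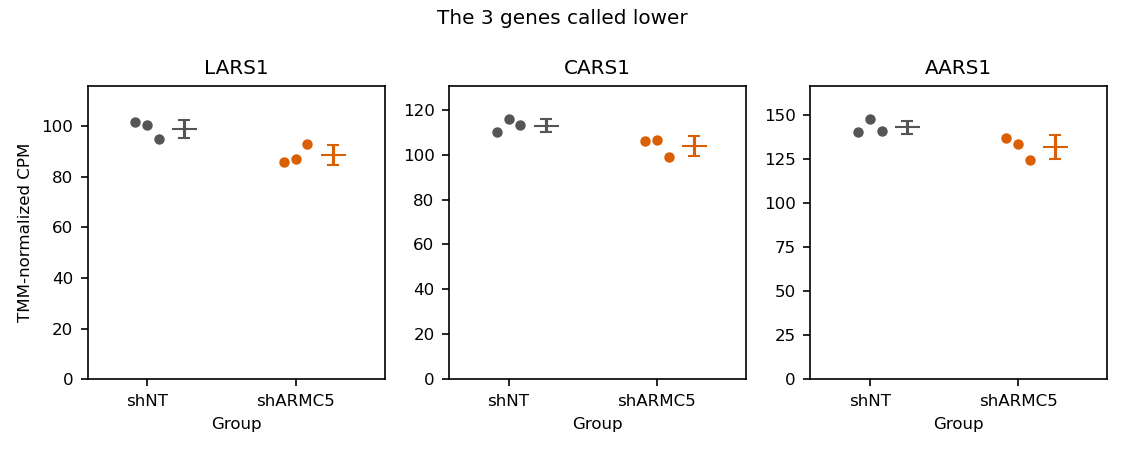
TMM-normalized CPM of LARS1, CARS1 and AARS1 in each library, from 0, with the mean and SD (n = 3) beside the points (shNT grey, shARMC5 orange). Every shARMC5 point lies below every shNT point in each of the 3 genes, by a small part of the total level.

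The uncalled members with the lowest p were VARS1, TARS2 and MARS2. VARS1, the cytosolic valyl enzyme, had 194.5, 188.9 and 182.0 CPM in shARMC5 against 193.8, 200.2 and 205.8 CPM in shNT, a log2 fold change of -0.08 (SE 0.03, adjusted p = 0.161 by edgeR). The groups overlapped by the highest knockdown library. TARS2, the mitochondrial threonyl enzyme, had 30.4, 30.4 and 30.5 CPM against 34.3, 35.4 and 30.3 CPM (log2 fold change -0.13, SE 0.06, adjusted p = 0.272 by edgeR). Here shNT replicate 3 stood with the knockdown libraries, and without it TARS2 was called lower (adjusted p = 0.0981, range over alternatives 0.0981 to 0.88), as was EARS2, the mitochondrial glutamyl enzyme. The log2 fold change of TARS2 was -0.09 without shNT replicate 2 and -0.06 with the length offset in edgeR or DESeq2. MARS2, the mitochondrial methionyl enzyme, had 26.1, 28.7 and 26.1 CPM against 25.6, 23.0 and 25.5 CPM, a log2 fold change of 0.13 (SE 0.07, adjusted p = 0.322 by edgeR). The value was 0.08 without shNT replicate 2 and 0.08 without shARMC5 replicate 2. Its knockdown libraries were all above its controls, as were those of YARS2. Together with the 3 called genes, 5 of 40 members (12.5%) had groups that did not overlap in CPM, against 23.4% of all tested genes.

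VARS2 was singled out after its values were seen, because its reads were unevenly spread among libraries. It had 257, 419 and 322 estimated reads in shARMC5 and 278, 37 and 1 in shNT, or 8.48, 10.6 and 12.8 CPM against 8.50, 1.14 and 0.0357 CPM. The first control library stood with the knockdown libraries and the other 2 controls were low. The log2 fold change of 1.69 had an SE of 1.22 and a 95% interval from -1.65 to 5.03 (adjusted p = 0.569 by edgeR). The gene has only 3 transcripts matched here, and whether its reads were assigned to transcripts outside the matched set was not tested. In every other member each library held at least 88 reads.

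Within the cytosolic and shared genes, the members were split by the ATF4 list. Of the 13 members taken as ATF4 targets, 12 had negative log2 fold changes and 1, WARS1, a positive value of 0.01. Among all 13737 tested genes, 6942 had negative values. Several of the 12 were smaller in size than their SE, such as TARS1 (-0.01, SE 0.03) and IARS1 (-0.02, SE 0.03). The median of the 13 members was -0.03, and 1 was called by DESeq2. They included all 3 genes called by edgeR, against 3.30% of all tested genes called lower, and none of the 3 was called with the length offset. The list was chosen with earlier results of these data known, so its holding of these genes is not a separate result. Of the 7 cytosolic or shared members outside the list, 5 had positive and 2 negative values, with a median of 0.01 and no call (0 with an unadjusted p under 0.05, 0 in DESeq2). The 8 members with the searched letters in their promoter window had a median of -0.03 with 2 called lower by edgeR, against the same 3.30%, and 0 by DESeq2, and the 25 members of the table without them had a median of 0.00 with 0 called lower (TARS2 alone with an unadjusted p under 0.05, 0 in DESeq2). No test of the difference between the lists was made.

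**Figure D5:**
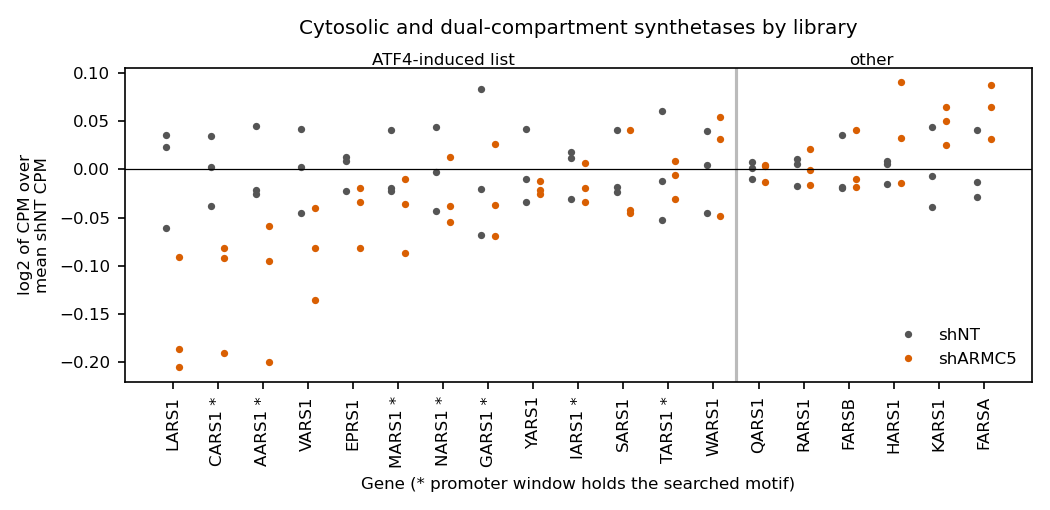
Log2 of the CPM of each library over the mean shNT CPM for cytosolic and shared synthetase genes, split by the ATF4 list and ordered by fold change, with an asterisk where the promoter window holds the searched letters (shNT grey, shARMC5 orange). Outside LARS1, CARS1 and AARS1 the points of the groups overlap.

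The genes of the multisynthetase complex had values in both directions. Its 11 genes had 4 positive and 7 negative log2 fold changes with a median of 0.00, and LARS1 was its only called member. EEF1E1 (0.07, SE 0.04), KARS1 (0.05, SE 0.03) and AIMP2 (0.05, SE 0.05) had the highest values in the complex, none of them called. EPRS1 and MARS1 had -0.04 each (SE 0.03), AIMP1 had -0.03 (SE 0.04), IARS1 had -0.02 (SE 0.03), and QARS1 and RARS1 had 0.00 (SE 0.03 each). The 12 cytosolic or shared members outside the complex had a median of -0.02 with 2 called lower by edgeR and 0 by DESeq2, where edgeR called 3.30% of all tested genes lower.

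The summed level of the cytosolic enzymes was 2376, 2363 and 2259 TPM in shARMC5 and 2484, 2408 and 2287 TPM in shNT, so the groups overlapped (2333 ± 64.4 and 2393 ± 99.2). The mitochondrial enzymes summed to 405, 413 and 391 TPM against 413, 399.9 and 386 TPM, which also overlapped. The ratio of the sums was 5.87, 5.72 and 5.77 in shARMC5 and 6.01, 6.02 and 5.92 in shNT. These ratios did not overlap (5.79 ± 0.076 and 5.98 ± 0.056). With VARS2 left out of the mitochondrial sum, the ratios were 5.92, 5.78 and 5.85 in shARMC5 and 6.06, 6.03 and 5.92 in shNT, so that shARMC5 replicate 1 and shNT replicate 3 were level while the means stayed apart (5.85 ± 0.071 and 6.003 ± 0.076). No test of the ratio was made.

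Among the 16 pairs other than the valyl pair, 4 had ratios that did not overlap between groups. The TPM of single genes did not overlap in 16.3% of all tested genes, which is another quantity, and no such share was computed for ratios. The CARS1 to CARS2 ratio was 0.862, 0.911 and 0.847 in shARMC5, below the 3 control values given above. Lower ratios were also seen for YARS1 to YARS2 (5.06 ± 0.263 against 5.74 ± 0.379) and MARS1 to MARS2 (11.01 ± 0.466 against 12.1 ± 0.942), and a higher one for TARS1 to TARS2 (14.3 ± 0.537 against 13.5 ± 0.343). FARSA and FARSB encode the alpha and beta chains of the same cytosolic phenylalanyl enzyme. The TPM of FARSA was 4.04 ± 0.012 times that of FARSB in shNT and 4.21 ± 0.069 times in shARMC5, again without overlap. In CPM, which does not divide by length, the chains were near level, at 132.5 for FARSA and 129.4 for FARSB in shNT. The leading transcript FARSB-201 has 7006 bases and FARSA-201 has 1811, so the TPM ratio depends on these annotated lengths. The log2 fold changes were 0.06 (SE 0.03) for FARSA and 0.01 (SE 0.03) for FARSB, and neither was called.

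HARS1 and HARS2, the cytosolic and mitochondrial histidyl enzymes, lie head to head on chromosome 5 and their annotated spans overlap by 108 bases. HARS1 had 101 ± 1.80 TPM in shNT and HARS2 14.2 ± 0.599 TPM, with log2 fold changes of 0.04 (SE 0.03) and -0.08 (SE 0.06), neither called. HARS1 also overlaps WDR55, on the opposite strand, by 1090 bases, and without strand the reads of overlapping stretches cannot be told apart.

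At the level of transcripts, 192 of the 465 annotated transcripts listed for the members could be tested and none was called by edgeR. Over all 49809 tested transcripts 4 were called (no DESeq2 fit was made per transcript). An unadjusted p under 0.05 by edgeR was reached by 6 member transcripts, a count not compared here with a share over all transcripts. In 19 members a leading transcript held over 80% of the TPM in shNT. For AARS1 that was AARS1-201, at 92.7 ± 2.16% of the gene's TPM in shNT and 92.9 ± 1.76% in shARMC5. LARS1 was divided between LARS1-201 (1176 codons, 34.7 ± 1.29% and 33.1 ± 2.45%) and LARS1-208 (1122 codons, 32.9 ± 3.25% and 33.3 ± 2.98%), and the retained-intron transcripts LARS1-203 and LARS1-206 held 11.6 ± 7.49% and 10.1 ± 2.65% in shARMC5 against 5.47 ± 5.36% and 7.59 ± 4.32% in shNT. The fitted log2 fold changes were -0.19 (SE 0.06, adjusted p = 0.789 by edgeR) for LARS1-201 and -0.11 (SE 0.09) for LARS1-208. CARS1-201 held 48.9 ± 3.12% in shNT and 39.4 ± 8.30% in shARMC5, CARS1-202 held 27.5 ± 2.12% and 24.9 ± 3.18%, and CARS1-203 held 7.84 ± 6.83% and 17.7 ± 5.14%. CARS1-203 was listed at 0 in shNT replicate 3, and shARMC5 replicate 2 had a CARS1-201 share like that of the controls.

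KARS1 makes its cytosolic and mitochondrial enzymes from alternatively spliced mRNAs. The cytosolic form KARS1-201 (597 codons) took 90.1 ± 1.05% of KARS1 TPM in shNT and 90.2 ± 0.156% in shARMC5. The longer KARS1-202 (625 codons), which adds the mitochondrial targeting sequence, took 4.78 ± 2.17% and 3.83 ± 0.916%, and the library values overlapped. GARS1 makes both of its forms from alternative start codons, and GARS1-201 held 95.9 ± 1.43% of its TPM in shNT and 96.5 ± 1.13% in shARMC5, so these data do not separate the GARS1 forms.

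The genes that act beside the synthetases were read from the same edgeR test. TARS3, whose symbol falls outside the rule for members, was counted with the companions of tRNA charging. None of 14 companions of tRNA charging was called (median log2 fold change -0.03, 0 in DESeq2). They include the mitochondrial amidotransferase subunits, editing factors and pyrophosphatases. Of the 14, 2 had an unadjusted p under 0.05 by edgeR, both lower, against 8.28% of all tested genes. None of 10 translation elongation factors was called by edgeR either (median 0.03). Of these 10, 2 had an unadjusted p under 0.05 by edgeR, both higher, against 9.78% of all tested genes. DESeq2 called EEF2, the translocation factor, higher, where it called 4.24% of the genes given an adjusted p. EEF2 had a log2 fold change of 0.07 (SE 0.02, adjusted p = 0.157 in edgeR). Of 25 genes of the amino acid response, 2 were called higher and 6 lower, against 4.44% and 3.30% of all tested genes, with a median of -0.07. ATF4 itself had a log2 fold change of -0.03 (SE 0.02, adjusted p = 0.543 by edgeR). The called genes with the lowest p were PPP1R15A, a phosphatase subunit that restores translation (0.32, SE 0.05), PHGDH, the first enzyme of serine synthesis (-0.16, SE 0.03), SLC3A2, a chain of amino acid exchangers (0.18, SE 0.03), DDIT4, an inhibitor of mTORC1 (-0.32, SE 0.05), and SLC7A11, the cystine exchanger (-0.26, SE 0.06).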

How the data were processed

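Per the labels, polyA+ libraries were made with a kit that does not mark strand. According to the submitters' processing notes and methods, the authors used cutadapt 4.2 for trimming and Salmon 1.9.0, with its GC-bias correction, for quantification. The deposited files give, per transcript, the authors' estimated counts, TPM and effective lengths; the transcript set is not given in the sources used here. Of 177456 transcripts, 165533 matched GENCODE 44 by identifier without version, and the other 11923 held 2.96% to 3.04% of reads. Here, estimated counts and deposited TPM were summed per gene, and counts rounded to whole numbers. The test took genes reaching 10 counts in 3 or more libraries (edgeR 4.0.16, R 4.3.3, TMM, robust quasi-likelihood F test, Benjamini-Hochberg over all 13737 genes, threshold 0.1). The SE is the absolute log2 fold change divided by the square root of F, and CPM are TMM-normalized. Intervals cover counting error and the fitted spread between libraries. Scripts were tested on simulated data. DESeq2 1.42.0, offsets, other normalizations, filters, a replicate block and omission of each library were alternatives, and leaving out libraries or VARS2 for the summed TPM and fitting transcripts singly were chosen after seeing the data. The members and gene lists were chosen with earlier results of these data known. Full values were given for called members and the 3 uncalled members of lowest p, levels for the 3 highest and 3 lowest of each compartment, the multisynthetase complex, GARS1, KARS1, HARS1 and HARS2, up to 5 called genes of other lists, and transcripts holding at least 10% of a called or shared gene. KARS1-202 and LARS1-207, which held less than 10%, were given as well. Library sizes ranged from 26201112 to 40866478 estimated reads, with a common biological coefficient of variation of 0.0643. Protein sequences were not used here. A few genes are counted in the totals and are not reported individually here.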

Additional observations from a re-analysis of the deposited data

How the results depend on the processing

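No member was called higher under any of the 16 alternatives. The 3 members called lower became 0 with the length offset in edgeR, 0 in DESeq2 with that offset, 1 in DESeq2 without it, 1 at an adjusted p under 0.05, and 0 to 3 when a library was left out (0 without shARMC5 replicate 2 or shNT replicate 1). With library size alone as the normalization, 4 were called, VARS1 being the addition (adjusted p = 0.0979 by edgeR). Over all genes, the 1064 calls became 235 with the length offset in edgeR, 568 in DESeq2 with it, 676 at an adjusted p under 0.05, and 536 to 1085 when a library was left out. With the replicate number as a block the count over all genes was 1766 and that of lower members was 3. The sources used here do not say whether libraries with the same number shared a preparation. The deviations of same-numbered libraries from the group means had correlations of -0.0499, -0.047 and 0.0762 over 10369 genes. Not every library correlated best with its own number, and these correlations cannot show whether a preparation was shared. The median log2 fold change ranged from -0.03 to 0.00 for cytosolic and from -0.01 to 0.02 for mitochondrial members. As reads per kilobase per 1000000 reads with TMM factors, the cytosolic sums were 2417 in shARMC5 and 2447 in shNT, and the mitochondrial sums 418 and 409. Without VARS2 the mean ratio of the cytosolic to the mitochondrial sum was 5.85 in shARMC5 and 6.003 in shNT, and the nearest libraries of the groups were level. The cause of these differences was not tested. Each group holds 3 libraries, and the lower levels of the mitochondrial genes go with wider intervals.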
